A study of Mus musculus with 8 samples.

Results

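Transcript levels of 2 normal leg muscles of the mouse, *gastrocnemius* and *tibialis anterior* (TA), were compared in wild-type (WT) animals. The samples were chosen by their labels: from each of 8 two-colour arrays the WT channel, labelled with Cy3, was taken, which gave 4 WT *gastrocnemius* and 4 WT TA samples, 8 of the 16 channel samples of the series. The WT mice were male C57BL6 littermates of mice heterozygous for *Eif6* (*Eif6*+/-, here Het) and were 8 to 16 weeks old. The Het mice carry 1 working and 1 disrupted copy of *Eif6*, a factor of ribosome assembly and translation initiation. Each array held 1 Het mouse (Cy5) and 1 age-matched WT mouse (Cy3) paired at random, and the series was made to compare the genotypes, so the comparison of the muscles uses the control channel alone, with the same dye on both sides. The labels do not say whether *gastrocnemius* 1 and TA 1, and so on, came from the same mouse, and the p-values below measure the spread between these samples.

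*Gastrocnemius* lies at the back of the calf and extends the ankle, while TA lies at the front of the shin and lifts the foot. Both are fast muscles in the mouse, and they differ in their place in the limb bud, their tendons and sheets of connective tissue, and the mix of fibres they hold, from slow oxidative fibres with type I myosin (*Myh7*) through fast oxidative ones (IIa and IIx, *Myh2* and *Myh1*) to fast glycolytic ones (IIb, *Myh4*). Muscles of different origin also keep, in the adult, different sets of the homeobox and T-box transcription factors that patterned them in the embryo.

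The arrays carried 55681 probes, of which 38.8% to 46% were well above the local background in the WT channel of an array. Levels are log2 of the background-corrected Cy3 brightness plus an offset of 50, after the 8 channels were given the same distribution. So 1 unit is a doubling of that sum, and in dim probes the offset makes differences and folds smaller. Levels of different probes are not comparable. A gene was tested if its probe was well above background on all 4 arrays of at least 1 muscle, which left 11846 of 20660 named genes. The contractile markers *Acta1*, *Ckm*, *Ttn*, *Des* and *Neb* were above background in every sample, so all 8 samples were muscle by these markers. Of the sex-linked genes, *Xist*, *Kdm5d* and *Uty* were not well above background on any array and *Ddx3y* and *Eif2s3y* were on all 8. Across probes, which are not independent replicates, samples of the same muscle correlated at r of 0.985 to 0.993 in *gastrocnemius* and 0.991 to 0.995 in TA, and samples of different muscles at 0.978 to 0.989. The axis of largest variation (47.3%) put the 4 *gastrocnemius* samples on one side, at -27.59, -9.13, -34.74 and -13.96, and the 4 TA samples on the other, at 22.47, 19.85, 21.36 and 21.72. The TA samples lay close together there and the *gastrocnemius* samples were spread out. *Eif6* itself did not pass the test between the WT muscles (0.14 higher in *gastrocnemius*, adjusted p = 0.33), and its Het over WT log2 ratio was below 0 on all 8 arrays (-1.22 to -0.80 for its brightest probe), as the genotype labels state.

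All *gastrocnemius* samples lay in one row of the slide and all TA samples in the other, so the row of the slide and the muscle cannot be separated. The RNAs added at labelling, which come from no muscle, were lower in the *gastrocnemius* row for 10 of 10 spike probes (-0.38 to -0.15, median -0.24), and some differences described here are no larger than that. The part of slide row in any of them was not tested.

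In limma's moderated test with Benjamini-Hochberg adjustment over all probes, 1493 of 11846 genes differed between the WT muscles at an adjusted p under 0.05 (called, from here on): 562 were higher in *gastrocnemius* (4.74% of those tested) and 931 lower (7.86%). The 4 values of 1 muscle did not overlap the 4 of the other in 2458 genes (20.7%), and in 1426 of the called genes (95.5%). The 12 largest calls of each direction, described below, were picked among calls without overlap. As given, the higher calls were the larger ones: 121 were at least 2-fold and 27 at least 4-fold, against 33 and 1 of the lower calls. The median size was 0.63 among higher and 0.44 among lower calls. A gene is counted by its brightest probe, and 352 called genes had a second tested probe. That probe had the same sign in 325 and was called in the same direction in 147 (41.8%). With the scanner software's processed signal, which was scaled to the 75th percentile of each array, several lower calls described below also passed 4-fold. Among them were *Cyp4f39* (-4.17) and *Lrtm2* (-3.51). Lower calls outnumbered higher ones under every scaling, by an excess that depended on it: 37.6% of the calls were higher in *gastrocnemius* as given, 22.3% when arrays were scaled to their 75th percentile (441 higher, 1539 lower), 25.1% with the scanner software's processed signal (568 and 1694) and 49.3% with cyclic loess (629 and 647). The median difference of all genes was -0.03. It moved by -0.066 with 75th percentile scaling alone and by -0.106 with the processed signal scaled that way. Without *gastrocnemius* 3, TA 2, TA 3 or TA 4 the calls numbered 710, 787, 750 and 666, and without TA 1 those higher in *gastrocnemius* numbered 347.

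As given, the single gene called lower by at least 4-fold was *Tbx1*. This T-box transcription factor sets up the pharyngeal arches and the muscles of the head. Its log2 level was 8.62, 8.67, 8.33 and 8.43 in *gastrocnemius* 1 to 4 and 12.80, 12.54, 12.55 and 12.50 in TA 1 to 4. The groups were far apart, and within each muscle the samples were nearly alike. The difference was -4.09 (SE 0.10, 17.0-fold, adjusted p = 4.8e-08). It kept its call under each of 19 alternatives (-4.58 to -4.02 across all 19), those with 1 array left out among them.

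The next largest differences toward TA were in genes of several kinds. *Raver2*, an RNA-binding protein, was at 6.99, 6.91, 7.04 and 7.23 in *gastrocnemius* and at 8.90, 8.92, 8.80 and 9.34 in TA (-1.95, SE 0.12, adjusted p = 7.2e-05). *Dusp26*, a dual-specificity phosphatase, differed by -1.91 (SE 0.28), and the leucine-rich repeat membrane proteins *Lrtm2* and *Lrtm1* by -1.86 (SE 0.17) and -1.83 (SE 0.15). *Tbc1d1*, a Rab GTPase-activating protein that restrains the movement of glucose transporters to the membrane, was at 10.13, 9.55, 9.97 and 9.95 in *gastrocnemius* and at 11.54, 11.30, 11.75 and 11.47 in TA (-1.62, SE 0.13, adjusted p = 0.000514). For *Raver2* and *Tbc1d1*, all 4 TA samples stood above all 4 *gastrocnemius* samples, which the rule that picked them required. *Mpped2*, a metallophosphoesterase, *Tspan12*, a tetraspanin that aids Norrin signalling to blood vessels, *Irf5*, an interferon regulatory factor, and *Adamts8*, a secreted metalloprotease, differed by -1.54, -1.52, -1.51 and -1.50. *Cyp4f39*, a cytochrome P450, and *Gm428*, a gene model, were lower too, but well above background on only 1 of 4 and 2 of 4 *gastrocnemius* arrays, so they could pass the filter only through TA and the size of their differences is uncertain: -1.54 and -1.45 as given, and -4.17 and -3.28 with the processed signal. The processed signal also gave larger differences for *Lrtm2*, *Mpped2* and *Adamts8* (-3.51, -2.49 and -2.45). All genes named in this paragraph kept their calls under every alternative in which they were tested. *Cyp4f39* and *Gm428* were not tested where a probe had to be well above background on all 8 arrays. The second probe of *Tbc1d1* gave a smaller difference, -0.62.

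**Figure D1:**
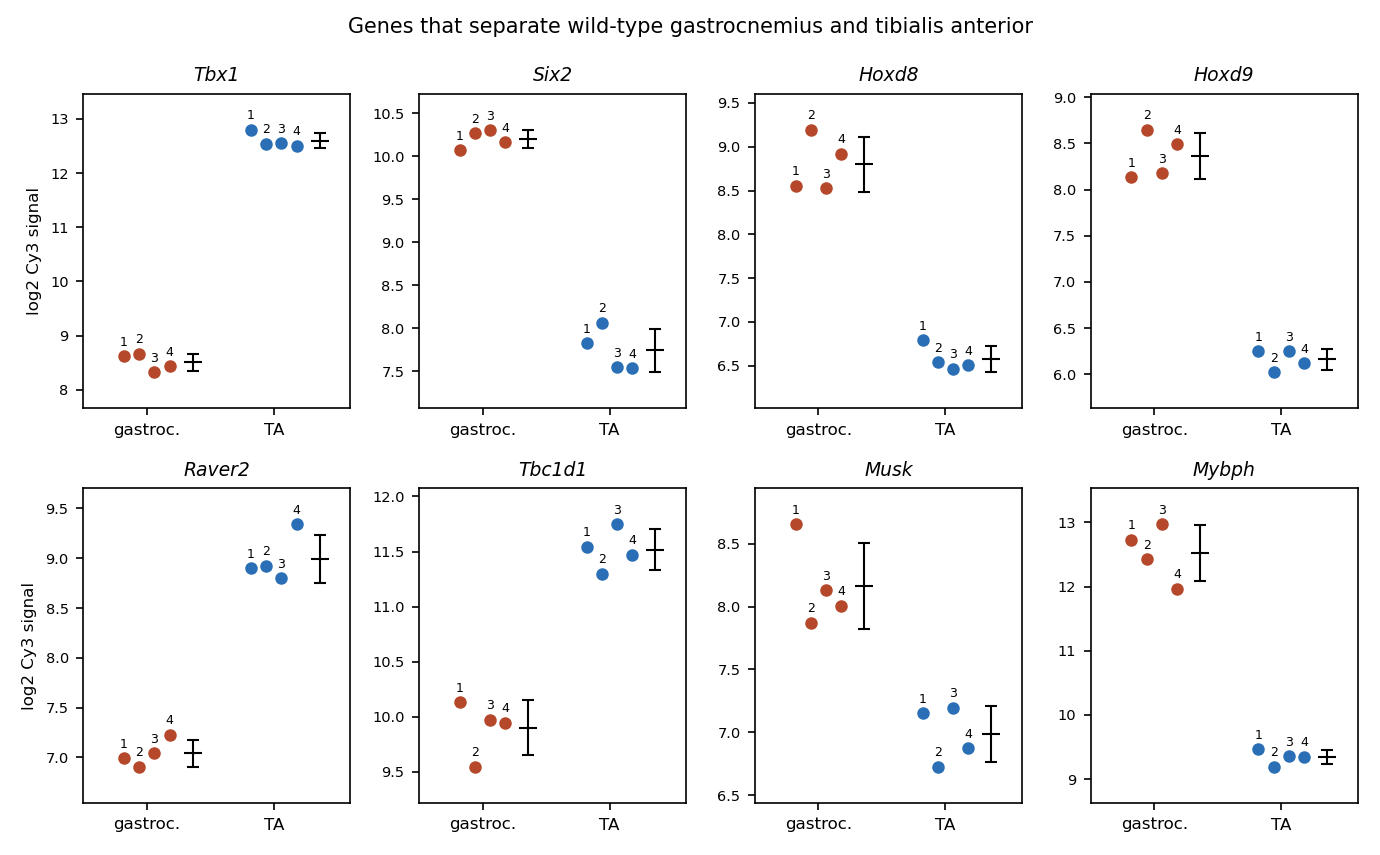
Log2 Cy3 level of 8 genes in each WT sample, with *gastrocnemius* in red and TA in blue, the sample number above each point and the mean with its SD (n = 4) beside each group, with an own axis for each panel. In all 8 panels the 4 samples of one muscle lie apart from the 4 of the other, and *Tbx1* has the widest gap (-4.09). *Tbx1*, *Six2*, *Raver2*, *Tbc1d1* and *Mybph* were picked by a rule that required samples to lie apart.

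*Six2*, a homeobox transcription factor known for keeping kidney progenitors undifferentiated and also present in limb tendons, differed as cleanly in the other direction. It was at 10.07, 10.27, 10.30 and 10.17 in *gastrocnemius* and at 7.83, 8.07, 7.55 and 7.54 in TA. No *gastrocnemius* sample came near the TA range. The difference was 2.46 (SE 0.12, 5.48-fold, adjusted p = 2.4e-05), with 1.03 for its second probe.

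The *Hox* genes, which tell cells their position along the body and limb, gave calls in both directions. Of 39 listed, 19 were tested, 3 were called higher in *gastrocnemius*, 4 lower and 12 neither (4.74% higher and 7.86% lower over all genes), with a median of -0.12 that was below 0 under every scaling (-0.32 with the processed signal). The 3 higher ones were neighbours in the *Hoxd* cluster, and no other member of that cluster was well above background on all 4 arrays of a muscle. *Hoxd8* was at 8.56, 9.19, 8.53 and 8.92 in *gastrocnemius* and at 6.79, 6.54, 6.47 and 6.51 in TA (2.22, SE 0.15, adjusted p = 0.000115; 3.65 with the processed signal). *Hoxd9* was at 8.13, 8.65, 8.18 and 8.49 in *gastrocnemius* and not well above background on any TA array, so its difference is a bound of at least 4.60-fold (adjusted p = 4.3e-05). *Hoxd10* was likewise above background in *gastrocnemius* only, at least 1.44-fold (adjusted p = 0.00547). Such bounds set the mean of the brighter muscle against a mean over the dim arrays of whichever was higher on each array, the dimmest signal well above background or the probe's own value. *Hoxd9* and *Hoxd10* could pass the filter only by being high in *gastrocnemius*, so of these calls *Hoxd8* alone remains among genes above background on all 8 arrays.

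The *Hox* genes called lower in *gastrocnemius* came from the other clusters and differed less, and 2 uncalled genes of those clusters, *Hoxa4* and *Hoxc10*, lay above 0 (0.53 and 0.19). *Hoxa3* was at 6.94, 6.97, 6.83 and 6.97 in *gastrocnemius* and at 7.43, 7.42, 7.42 and 7.49 in TA (-0.51, SE 0.07, adjusted p = 0.00389), and *Hoxc6* differed by -0.41 (SE 0.07); both were larger with the processed signal (-0.83 for *Hoxa3*). The 2 muscles did not overlap in either gene. *Hoxb7* (-0.33) and *Hoxb2* (at least 1.20-fold lower, below background in *gastrocnemius*) were less stable: *Hoxb7* lost its call without any 1 array except *gastrocnemius* 1 (adjusted p up to 0.12), and *Hoxb2* without *gastrocnemius* 3 or 4 or TA 1, 2 or 3 (up to 0.0756); both calls also ended under 75th percentile scaling, and that of *Hoxb7* with cyclic loess, without background correction and without the filter. The brightest *Hox* gene, *Hoxc9*, did not pass the test (-0.12, adjusted p = 0.486).

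**Figure D2:**
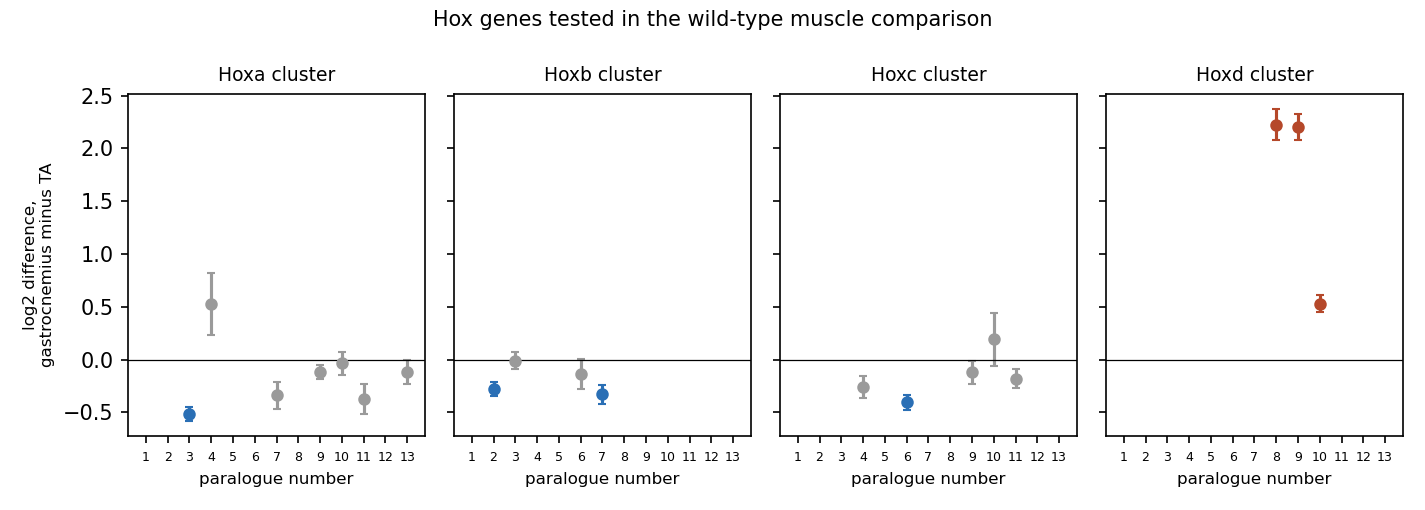
Log2 difference, WT *gastrocnemius* minus WT TA, of each tested *Hox* gene by cluster and paralogue number, with its standard error (red, called higher in *gastrocnemius*; blue, called lower; grey, not called). *Hoxd8* and *Hoxd9* stand at 2.22 and 2.20; for *Hoxd9*, *Hoxd10* and *Hoxb2* the signal of 1 muscle was not well above background.

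Among 46 other patterning and muscle identity factors, 31 were tested, 1 was called higher (*Six2*) and 4 lower, against 4.74% and 7.86% of all genes, with a median of -0.09 that was below 0 under every scaling (-0.26 with the processed signal). Beside *Tbx1*, the lower ones included *Irx3*, an Iroquois homeobox factor (-0.81, SE 0.15, adjusted p = 0.0123; -1.35 with the processed signal), and *Meis1*, a partner of HOX proteins (-0.46, SE 0.10, adjusted p = 0.0183). The call of *Meis1* ended without *gastrocnemius* 3 (adjusted p = 0.0517). The hindlimb factor *Tbx4* gave 0.01 and *Lmx1b*, which marks the dorsal side of the limb bud, -0.03, neither of them called. *Pitx1*, another hindlimb factor, was well above background on only 2 of 4 *gastrocnemius* arrays, so its difference is uncertain (-0.30 to 0.08 across the alternatives, not called). *Tbx15*, a T-box factor of glycolytic fibres, was lower in all 4 *gastrocnemius* samples than in any TA sample but missed the threshold (-0.32, adjusted p = 0.0878), which it passed with 75th percentile scaling or the processed signal (adjusted p = 0.0306 and 0.0264). The forelimb gene *Tbx5* was not well above background on any array.

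Promoter sequence is shown for genes whose levels set the muscles apart, *Tbx1*, *Hoxd8* and *Hoxd9*, and for 3 genes of the slow fibre list described next, *Myl2*, *Tnnc1* and *Tnnt1*, which were higher in *gastrocnemius* together. The sequences are RefSeq's on GRCm38.p6, 250 bases before to 50 bases after a start, taken at the start furthest upstream where a gene has 2, and a promoter was found for 84 of the 117 named genes. Capitals mark the E-box CANNTG, the letters bound by myogenic and other helix-loop-helix factors, and the M-CAT box CATTCC, bound by TEAD factors, on either strand and with overlaps allowed. Of all 32851 promoters, 72.3% hold the E-box, 14.7% the M-CAT box and 3.19% a MEF2 box. Among the 8 promoters of the 5 matched genes of the 6 called slow fibre genes, 8 hold the E-box, 2 the M-CAT box and 0 the MEF2 box. A match is a description of the letters only. The windows are *Tbx1* at chr16:18590622-18590921 (minus strand), *Hoxd8* at chr2:74704365-74704664 (plus), *Hoxd9* at chr2:74697513-74697812 (plus), *Myl2* at chr5:122092474-122092773 (plus), *Tnnc1* at chr14:31208062-31208361 (plus) and *Tnnt1* at chr7:4515926-4516225 (minus).
Tbx1: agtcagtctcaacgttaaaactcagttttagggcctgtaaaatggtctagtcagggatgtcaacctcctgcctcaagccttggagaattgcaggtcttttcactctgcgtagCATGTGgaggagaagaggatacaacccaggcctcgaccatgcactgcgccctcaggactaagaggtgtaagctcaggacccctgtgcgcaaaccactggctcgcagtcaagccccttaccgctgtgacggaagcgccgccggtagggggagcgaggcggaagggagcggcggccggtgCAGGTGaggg
Hoxd8: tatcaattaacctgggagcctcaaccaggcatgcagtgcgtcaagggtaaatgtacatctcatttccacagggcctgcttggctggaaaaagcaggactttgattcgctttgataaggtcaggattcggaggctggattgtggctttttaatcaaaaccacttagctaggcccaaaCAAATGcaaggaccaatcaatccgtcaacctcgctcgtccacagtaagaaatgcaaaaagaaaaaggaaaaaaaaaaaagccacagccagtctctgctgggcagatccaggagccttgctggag
Hoxd9: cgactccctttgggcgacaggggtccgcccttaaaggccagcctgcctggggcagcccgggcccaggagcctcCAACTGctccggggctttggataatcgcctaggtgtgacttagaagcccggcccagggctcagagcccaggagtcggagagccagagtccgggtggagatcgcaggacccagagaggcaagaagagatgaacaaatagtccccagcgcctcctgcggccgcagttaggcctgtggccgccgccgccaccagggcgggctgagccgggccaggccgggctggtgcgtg
Myl2: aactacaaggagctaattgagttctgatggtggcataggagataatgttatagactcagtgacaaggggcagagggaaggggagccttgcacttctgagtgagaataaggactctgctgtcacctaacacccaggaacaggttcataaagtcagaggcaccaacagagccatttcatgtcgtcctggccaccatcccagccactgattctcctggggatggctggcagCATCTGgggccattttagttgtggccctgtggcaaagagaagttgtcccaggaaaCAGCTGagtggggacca
Tnnc1: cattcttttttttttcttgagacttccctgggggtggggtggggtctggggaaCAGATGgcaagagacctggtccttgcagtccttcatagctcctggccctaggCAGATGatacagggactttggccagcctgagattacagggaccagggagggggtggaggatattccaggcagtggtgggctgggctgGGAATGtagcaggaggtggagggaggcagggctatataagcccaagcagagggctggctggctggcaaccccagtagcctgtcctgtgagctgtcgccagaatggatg
Tnnt1: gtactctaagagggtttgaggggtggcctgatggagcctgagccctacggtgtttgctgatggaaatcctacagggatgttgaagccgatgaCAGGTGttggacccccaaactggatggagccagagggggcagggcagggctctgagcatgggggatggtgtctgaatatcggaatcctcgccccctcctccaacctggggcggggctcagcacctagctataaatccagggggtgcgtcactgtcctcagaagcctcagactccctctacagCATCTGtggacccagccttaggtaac

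Some slow fibre genes were called higher in *gastrocnemius*, with wide spread between samples. Of 15 listed sarcomere and calcium genes of slow fibres, 6 were called higher, 0 lower and 9 neither, against 4.74% and 7.86% of all genes. The median was 0.91 against -0.03 over all genes, above 0 under every scaling. *Myl2*, the slow and cardiac regulatory light chain, was at 10.82, 12.95, 12.20 and 14.31 in *gastrocnemius* and at 6.57, 10.00, 7.25 and 8.91 in TA. *Myh7*, the slow myosin heavy chain, was at 9.13, 12.49, 12.26 and 14.36 in *gastrocnemius* and at 7.12, 10.37, 7.29 and 8.04 in TA. *Gastrocnemius* 4 was highest and *gastrocnemius* 1 lowest in its group for both genes, TA 2 was highest among TA samples, and in *Myh7* the groups overlapped, since TA 2 lay above *gastrocnemius* 1. The differences were 4.39 (SE 0.83, 21.0-fold, adjusted p = 0.0135) for *Myl2* and 3.85 (SE 1.03, 14.4-fold, adjusted p = 0.0409) for *Myh7*. The slow troponins *Tnnt1*, *Tnni1* and *Tnnc1* differed by 2.31, 1.95 and 1.93 and *Atp2a2*, the slow calcium pump, by 1.59. *Myl3*, the brightest of the list, did not pass the test (0.22, adjusted p = 0.858). In bulk tissue, more slow fibres and more slow transcript in each fibre cannot be told apart, and the same holds for each cell type below. The summed signal of the list was 16910, 55100, 37980 and 121000 in *gastrocnemius* 1 to 4 and 15410, 32570, 13470 and 36790 in TA 1 to 4, so the groups overlapped in the sum. Without the filter on dim probes 2 of the list were called, and *Myh7* and *Tnnt1* were not among them. *Tnnt1* lost its call without *gastrocnemius* 3 or TA 1, 2 or 3 (adjusted p up to 0.0719). The call of *Myh7* ended without *gastrocnemius* 2, 3 or 4 or TA 1, 3 or 4 (adjusted p of 0.0697, 0.0932, 0.0778, 0.091, 0.107 and 0.0963), and the list's count fell to 2 without *gastrocnemius* 3, TA 1 or TA 3 and to 3 without TA 4. Its median fell to 0.39 without *gastrocnemius* 4 and rose to 1.39 without *gastrocnemius* 1.

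Fast fibre genes gave few calls. Of 16 fast sarcomere and calcium genes, 1 was called higher and 1 lower, against 4.74% and 7.86% of all genes, and 13 of 16 lay above 0. The median of 0.21 stayed above 0 under every scaling but fell to 0.01 with the processed signal. With 1 array left out, the median was lowest without TA 1 (0.09). *Myh1*, the IIx myosin heavy chain, was at 13.98, 14.83, 14.43 and 14.82 in *gastrocnemius* and at 15.45, 15.80, 15.68 and 16.49 in TA. Every TA sample was above every *gastrocnemius* sample, by a mean difference of -1.34 (SE 0.24, 2.53-fold, adjusted p = 0.0113). *Myh4*, the IIb chain, gave 0.31 (adjusted p = 0.149) and *Myh2*, the IIa chain, 0.37 (SE 0.74, adjusted p = 0.783), with the 4 *Myh2* values of each muscle spread over nearly the same range and a difference of -0.12 to 1.00 across the alternatives. The fast myosin heavy chains are close in sequence and the probe sequences were not used, so how far a probe reads its neighbours is uncertain. *Mybpc2*, the fast myosin-binding protein C, was called higher (0.48, adjusted p = 0.0368) and lost that call with 75th percentile scaling, the processed signal or cyclic loess (0.22, 0.28 and 0.48) and without *gastrocnemius* 1, 2 or 3 or TA 2 or 4 (adjusted p up to 0.0836).

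**Figure D3:**
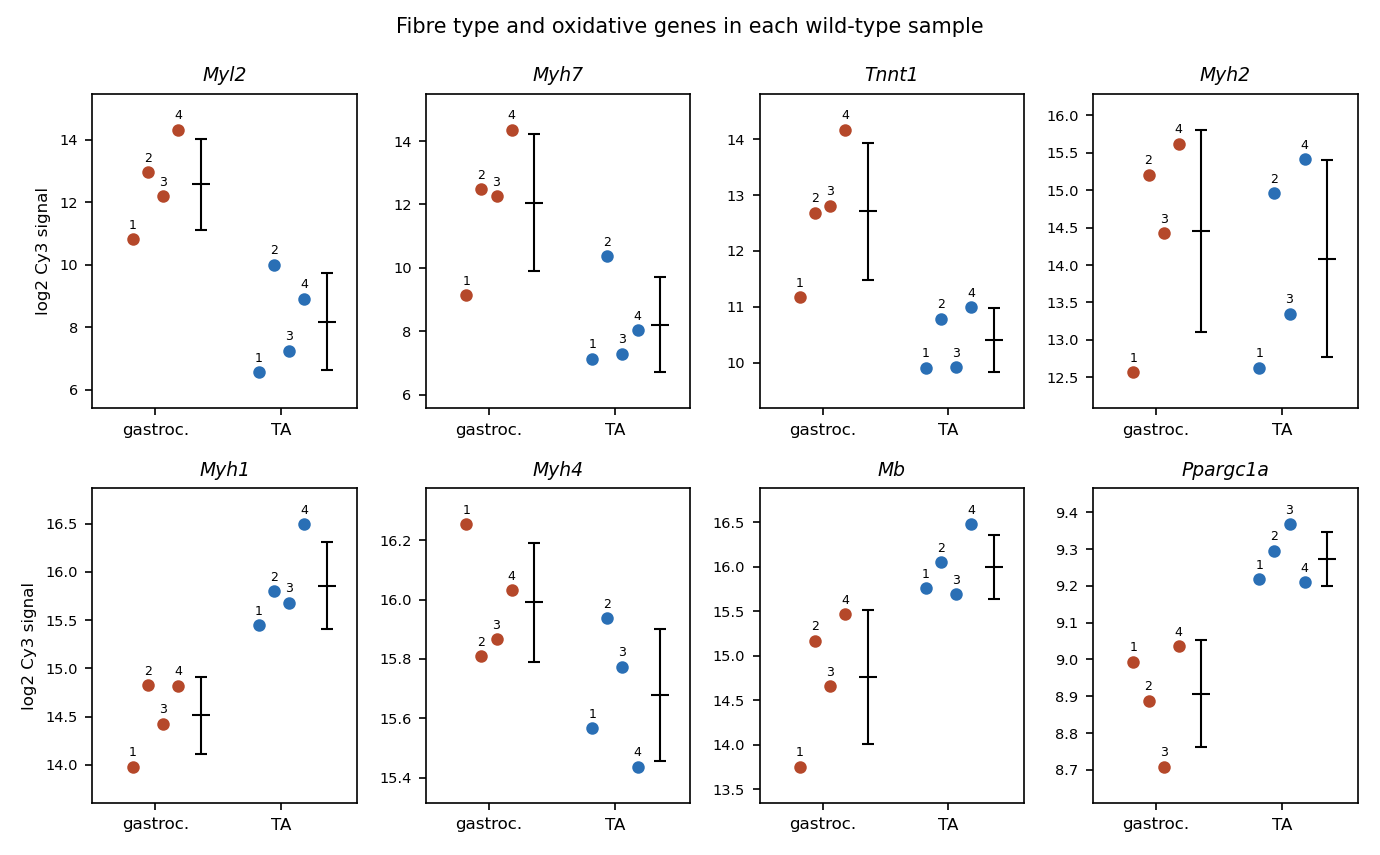
Log2 Cy3 level of slow (*Myl2*, *Myh7*, *Tnnt1*) and fast (*Myh2*, *Myh1*, *Myh4*) sarcomere genes, of myoglobin (*Mb*) and of *Ppargc1a* in each WT sample, drawn as in the plot of *Tbx1* and *Six2*, with an own axis for each panel. *Myl2* and *Myh7* spread over several units within *gastrocnemius*, from 10.82 to 14.31 and from 9.13 to 14.36, while *Myh1* lies lower in every *gastrocnemius* sample than in any TA sample.

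Of 8 tested genes of the developing sarcomere, 1 was called higher and 1 lower, against 4.74% and 7.86% of all genes. Their median of 0.57 was above 0 under every scaling. *Mybph*, myosin-binding protein H, was at 12.73, 12.43, 12.97 and 11.97 in *gastrocnemius* and at 9.47, 9.20, 9.36 and 9.35 in TA (3.18, SE 0.18, 9.06-fold, adjusted p = 5.0e-05). The lowest *gastrocnemius* sample was still far above the highest TA sample, and the call held under every alternative. *Myl10*, a regulatory light chain, went the other way (-1.06, SE 0.23, adjusted p = 0.0211; -1.80 with the processed signal) and lost its call without *gastrocnemius* 3, TA 3 or TA 4 (adjusted p of 0.0514, 0.0567 and 0.0559). Perinatal myosin *Myh8*, the brightest of the list, gave 0.27 and was not called, and its signal may hold that of *Myh4* and *Myh1*. Of 6 tested myogenic regulatory factors and MEF2 genes none was called, with a median of 0.01 that turned negative with the processed signal (-0.13): *Myod1* gave -0.24 (adjusted p = 0.37), *Myog* 0.63 (adjusted p = 0.175), with *gastrocnemius* 1 and 3 high, and *Myf6* 0.07.

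Genes of mitochondrial respiration were lower in *gastrocnemius* as a group, although some slow fibre genes were called higher there. Of 81 oxidative phosphorylation genes 49 were called lower and 0 higher, against 7.86% and 4.74% of all genes. The median was -0.43 against -0.03 over all genes, and was below 0 under every scaling (-0.70 with the processed signal). Of the 81 genes, 2 lay above 0. Their summed signal was 1407000, 1441000, 1285000 and 1606000 in *gastrocnemius* and 1760000, 1908000, 1855000 and 2137000 in TA. Every TA sum was above every *gastrocnemius* sum. The largest differences were in *Ndufa8*, a complex I subunit (-0.87, SE 0.12, adjusted p = 0.00417), in the muscle form of a cytochrome oxidase subunit, *Cox7a1* (-0.81, adjusted p = 0.0171), in the Rieske protein of complex III, *Uqcrfs1* (-0.74, adjusted p = 0.027), and in *Cox6b1*, another oxidase subunit, at 11.97, 12.05, 12.01 and 12.30 in *gastrocnemius* and 12.79, 12.72, 12.72 and 12.83 in TA (-0.68, adjusted p = 0.00346). The brightest, *Cox6a2*, was not called (-0.36, adjusted p = 0.145), except under 75th percentile scaling (adjusted p = 0.0288). The count fell to 26 without *gastrocnemius* 3 and to 22, 32 and 20 without TA 2, 3 or 4, and *Uqcrfs1* lost its call without any of these 4 (adjusted p up to 0.0763); under 75th percentile scaling it rose to 78.

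Lists of enzymes that feed the respiratory chain also gave lower calls only, where 7.86% of all genes were called lower and 4.74% higher. Of 22 tested genes of the tricarboxylic acid cycle and pyruvate dehydrogenase, 11 were called lower and 0 higher (median -0.45), among them *Mdh1*, malate dehydrogenase (-0.83, SE 0.16, adjusted p = 0.0131), and *Pdhb* and *Dld*, subunits of pyruvate dehydrogenase (-0.67 and -0.61). Of 26 genes of fatty acid uptake and oxidation, 7 were called lower and 0 higher (median -0.45, with 0 of 26 above 0), led by the acyl-CoA dehydrogenases *Acadl* (-0.82, adjusted p = 0.0268) and *Acadvl* (-0.72, adjusted p = 0.0283). Both lists were below 0 under every scaling. *Acot13*, a mitochondrial thioesterase, differed by -0.70 and kept its call under every alternative. The count of the fatty acid list was 3, 3, 13, 4, 3 and 2 without *gastrocnemius* 1, 3 or 4 or TA 1, 2 or 4, respectively, and that of the cycle was 7 without TA 4; under 75th percentile scaling they were 19 and 17. *Acadl* and *Acadvl* both lost their calls without *gastrocnemius* 1 or 3 or TA 1, 2 or 4 (adjusted p up to 0.0759 and 0.0757).

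A list of regulators of oxidative metabolism and related genes showed the same direction with less support. It also holds genes that are not regulators, *Mb* and *Vegfa* among them. Of 16 genes 7 were called lower and 0 higher, against 7.86% and 4.74% of all genes. The median of -0.33 was below 0 under every scaling (-0.55 with the processed signal). The called genes were *Mb*, *Esrrb*, *Esrrg*, *Perm1*, *Vegfa*, *Esrra* and *Ppargc1a*. Myoglobin (*Mb*), the oxygen store of muscle, was at 13.75, 15.17, 14.66 and 15.47 in *gastrocnemius* and at 15.76, 16.05, 15.69 and 16.48 in TA (-1.23, SE 0.33, adjusted p = 0.041). *Ppargc1a*, the coactivator that drives mitochondrial biogenesis, was at 8.99, 8.89, 8.71 and 9.04 against 9.22, 9.30, 9.37 and 9.21 (-0.37, SE 0.09, adjusted p = 0.0292). Its second probe gave -0.19. In both genes the groups did not overlap, and for *Mb* *gastrocnemius* 1 was the lowest sample. The count dropped to 1 without *gastrocnemius* 3, TA 2 or TA 3, to 2 without TA 1 and to 0 without TA 4. *Mb* lost its call with cyclic loess, without the filter, and without *gastrocnemius* 3 or any TA sample (adjusted p up to 0.109), and *Ppargc1a* without *gastrocnemius* 3, TA 2, TA 3 or TA 4 (up to 0.0815).

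**Figure D4:**
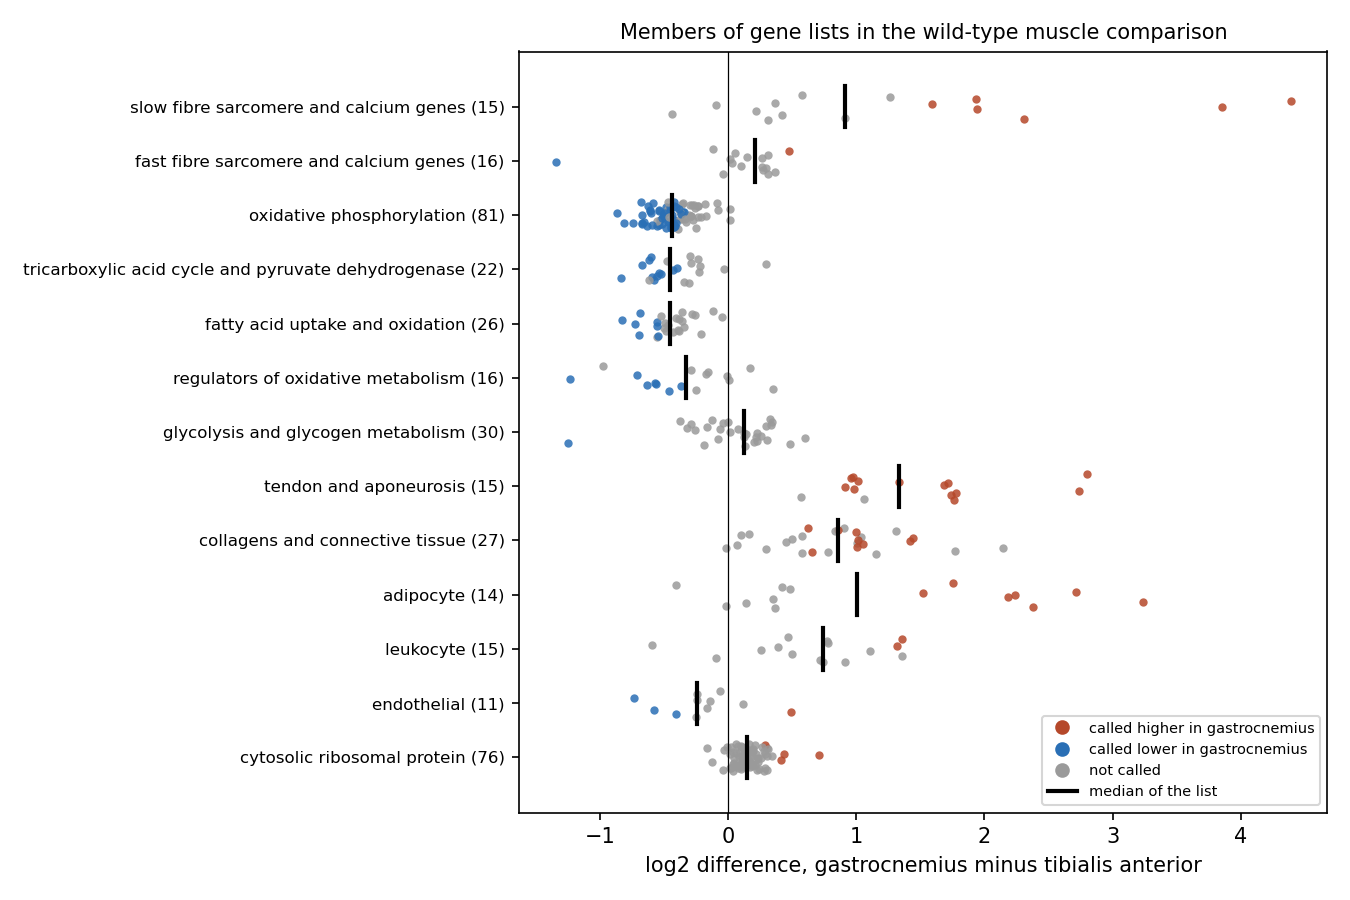
Log2 difference, WT *gastrocnemius* minus WT TA, of every tested member of 13 gene lists (number tested in brackets; red, called higher in *gastrocnemius*; blue, called lower; grey, not called; black bar, median). The slow fibre, tendon, collagen and adipocyte lists lie to the right and the 4 oxidative lists to the left under every scaling, while the medians of the glycolysis and ribosomal lists change sign between scalings.

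Glycolysis and glycogen genes gave 0 called higher and 1 called lower of 30 tested, against 4.74% and 7.86% of all genes. The median of 0.13 turned to -0.11 under 75th percentile scaling, and 6 were called lower with the processed signal. The called gene was *Gbe1*, the glycogen branching enzyme, at 10.23, 9.92, 10.33 and 10.58 in *gastrocnemius* and at 11.53, 11.26, 11.47 and 11.79 in TA. The groups were clearly separate (-1.25, SE 0.15, 2.37-fold, adjusted p = 0.00307). *Gapdh*, the brightest member, gave 0.12 (adjusted p = 0.279).

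At the neuromuscular junction, 1 of 15 genes was called higher and 1 lower, against 4.74% and 7.86% of all genes (median -0.10, which turned above 0 without *gastrocnemius* 4, at 0.01). *Musk*, the receptor kinase that gathers acetylcholine receptors under the nerve, was at 8.65, 7.87, 8.13 and 8.01 in *gastrocnemius* and at 7.15, 6.73, 7.19 and 6.87 in TA (1.18, SE 0.17, 2.27-fold, adjusted p = 0.0054). *Gastrocnemius* 1 was the highest, and no TA sample reached the *gastrocnemius* range. *Dok7*, the adaptor that activates MuSK, differed by -0.38 (adjusted p = 0.035), a call that ended with cyclic loess and without *gastrocnemius* 2, 3 or 4 or TA 2, 3 or 4 (adjusted p up to 0.0786), and the brightest, *Rapsn*, gave -0.01. Of 17 calcium handling genes, 1 was called higher and 0 lower, against 4.74% and 7.86% of all genes. The called gene was *Cacng1*, a subunit of the voltage sensor (0.60, adjusted p = 0.0219). That list's median of 0.09 turned to -0.08 under 75th percentile scaling, where 3 of its genes were called lower. The call of *Cacng1* ended there, with the processed signal, and without *gastrocnemius* 3, TA 2 or TA 4 (adjusted p up to 0.0657).

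Tendon genes were higher in *gastrocnemius*. Of 15 tested genes of tendon and aponeurosis 13 were called higher and 0 lower, against 4.74% and 7.86% of all genes. The median was 1.33 against -0.03 over all genes, above 0 under every scaling (2.23 with the processed signal). Of the 15, 4 were above background on all arrays of *gastrocnemius* only, so they could pass the filter only by being high there. The median over the 11 measured on all arrays was 1.72. *Fmod*, fibromodulin, a proteoglycan that shapes collagen fibrils, was at 10.79, 11.09, 11.32 and 11.78 in *gastrocnemius* and at 7.72, 9.97, 7.37 and 8.69 in TA (2.80, SE 0.48, adjusted p = 0.00971). *Comp*, cartilage oligomeric matrix protein, was at 10.39, 9.43, 10.78 and 10.69 in *gastrocnemius* and at 7.02, 8.54, 6.96 and 7.81 in TA (2.74, SE 0.38, adjusted p = 0.00476). For both, TA 2 came closest to the *gastrocnemius* samples without reaching them. *Scx*, a transcription factor that defines tendon cells, differed by 0.98 (adjusted p = 0.0135). The brightest, *Thbs4*, was not called (1.06, adjusted p = 0.0985), except without *gastrocnemius* 2 (adjusted p = 0.0134). Summed signal was 16980, 9481, 22620 and 17220 in *gastrocnemius* and 4570, 7990, 4403 and 6635 in TA. The count was 7 without the filter, and 7, 8, 6, 6 and 6 without *gastrocnemius* 3 or 4 or TA 1, 3 or 4.

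Of the genes of general connective tissue, 9 of 27 were called higher and 0 lower, against 4.74% and 7.86% of all genes. The median was 0.86, above 0 under every scaling. The called genes included *Pi16*, a marker of adventitial fibroblasts (1.44, SE 0.29, adjusted p = 0.0169), *Col1a2*, a chain of type I collagen (1.42, SE 0.35, adjusted p = 0.032), *Mfap5* and *Fbn1*, proteins of microfibrils (1.05 and 1.02), and *Dcn*, decorin (1.01). *Sparc*, the brightest, was not called (0.83, adjusted p = 0.115). Summed signal was 210900, 131200, 295100 and 166500 in *gastrocnemius* and 84920, 130300, 58180 and 119400 in TA, where *gastrocnemius* 3 was highest and *gastrocnemius* 2 barely exceeded TA 2. *Col1a2* lost its call with the processed signal, without the filter, and without *gastrocnemius* 1 or 3 or TA 1, 3 or 4 (adjusted p up to 0.0731 with 1 array left out). By the labels, excess fat and connective tissue were removed at dissection. How much tendon or sheath each sample held was not measured, and its part in these differences was not tested.

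Some fat cell genes were called higher in *gastrocnemius*: 7 of 14 tested were higher, 0 lower and 7 neither, against 4.74% and 7.86% of all genes. The median of 1.00 was above 0 under every scaling but was 0.45 without the filter on dim probes and 2.21 with the processed signal. With any 1 array left out 7 were called higher, and among probes well above background on all 8 arrays 6 were. Of the 14 genes, 2 passed the filter through *gastrocnemius* only. *Cfd*, adipsin, was at 13.70, 13.45, 12.84 and 14.81 in *gastrocnemius* and at 10.57, 9.93, 10.61 and 10.74 in TA (3.24, SE 0.35, 9.43-fold, adjusted p = 0.00196). *Adipoq*, adiponectin, was at 9.88, 9.51, 8.85 and 10.83 in *gastrocnemius* and at 6.95, 6.98, 7.08 and 7.21 in TA (2.71, SE 0.33, adjusted p = 0.00326). *Gastrocnemius* 4 was highest and *gastrocnemius* 3 lowest in both, and all 4 were above TA. The lipid droplet protein *Cidec* (2.24, and 1.13 for its second probe), the desaturase *Scd1* (2.38), resistin (*Retn*, 2.18) and *Pck1* (1.76) were called too. So was *Plin1*, which passed the filter through *gastrocnemius* only. *Fabp4*, the brightest of the list and also made by capillary endothelium, gave -0.01. *Lep* and *Ucp1* were not well above background on any array. Summed signal was 32340, 27660, 20790 and 57060 in *gastrocnemius* and 16980, 14250, 16980 and 17000 in TA, with no overlap.

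4 of the largest higher calls lay outside these lists. *Hp*, haptoglobin, a haemoglobin-binding plasma protein that liver and fat make, differed by 2.97 (SE 0.39, adjusted p = 0.00403). *Cyp2e1*, a cytochrome P450 of liver and fat, was at 10.93, 10.52, 10.39 and 12.31 in *gastrocnemius* and at 8.22, 7.73, 8.63 and 8.54 in TA (2.76, SE 0.38, adjusted p = 0.00466). In both genes the groups did not overlap, which their choice required, and *gastrocnemius* 4 was the highest sample, as for *Cfd* and *Adipoq*. The major urinary protein probes *Mup19* and *Mup18* gave 2.95 and 2.62 (adjusted p = 0.00823 and 0.009); the *Mup* genes are nearly identical copies, so which of them was measured is uncertain. The part of fat cells in these differences was not tested.

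Among other cells of the tissue, 2 of 15 leukocyte genes were called higher and 0 lower, against 4.74% and 7.86% of all genes, with a median of 0.74, above 0 under every scaling (0.49 without *gastrocnemius* 3). These were *C1qc* and *C1qa*, complement chains made by macrophages (1.36 and 1.32, adjusted p = 0.0251 and 0.0373), with *gastrocnemius* 1 and 3 the high samples. The sums were 15070, 9768, 20960 and 9045 in *gastrocnemius* and 8587, 8434, 7953 and 9820 in TA, the groups overlapped, the brightest gene, *H2-Ab1*, was not called (0.47), and both complement calls ended without *gastrocnemius* 1 or any 1 TA sample (adjusted p up to 0.0668 for *C1qc* and 0.0971 for *C1qa*), while 5 genes were called without *gastrocnemius* 2 or 4. Of 11 endothelial genes 3 were called lower and 1 higher, with a median of -0.24 that was below 0 under every scaling (-0.14 without *gastrocnemius* 1). *Flt1*, a VEGF receptor, was at 10.52, 10.17, 10.06 and 10.42 in *gastrocnemius* and at 10.85, 11.01, 11.08 and 11.15 in TA (-0.73, SE 0.11, adjusted p = 0.00688), with no overlap. *Egfl7*, secreted by endothelium, and *Esam*, an adhesion molecule of its junctions, differed by -0.58 and -0.40. Von Willebrand factor (*Vwf*), more abundant in larger vessels, was higher (0.49, adjusted p = 0.0212), a call that ended without TA 2 or TA 4, under 75th percentile scaling and with the processed signal (adjusted p up to 0.0873). Endothelial sums were 9369, 8834, 8345 and 9539 in *gastrocnemius* and 10950, 12010, 10800 and 11760 in TA. None of 7 smooth muscle and pericyte genes (median 0.25, and 0.13 to 0.40 with 1 array left out), 14 myelinated nerve genes (median 0.16, and 0.06 without *gastrocnemius* 2) or 5 red blood cell genes (median -0.03, which turned to 0.13 without *gastrocnemius* 1) was called, and the brightest of these lists, *Tagln*, *Pmp22* and *Hba-a2*, gave 0.35, 0.70 and 0.06. Without *gastrocnemius* 3, 2 nerve genes were called, *Pmp22* among them (adjusted p = 0.0157), and without TA 1, 1 smooth muscle gene.

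Some lists hold genes that can move with handling, feeding or the hour. Over all genes, 4.74% were called higher and 7.86% lower. Of 14 immediate early genes 0 were called (median -0.06; *Nr4a1*, the brightest, -0.28), and the median of 15 circadian clock genes was 0.06. The medians turned to 0.07 without TA 2 and to -0.07 under 75th percentile scaling, respectively. Of 13 glucocorticoid-responsive and metallothionein genes 3 were called lower and 1 higher (median -0.13, and -0.31 with the processed signal): *Sgk1*, a kinase of sodium transport (-0.79, SE 0.13, adjusted p = 0.00785), *Klf15* (-0.66) and *Zbtb16* (-0.39) were lower, and *Cdkn1a*, a cell cycle inhibitor, was higher (0.62). Of these only *Sgk1* kept its call under every alternative; *Klf15*, *Zbtb16* and *Cdkn1a* each lost it without *gastrocnemius* 1 or 3 or any 1 TA sample (adjusted p up to 0.105, 0.103 and 0.117), and *Zbtb16* without *gastrocnemius* 4 too. Of 76 cytosolic ribosomal protein genes 4 were called higher, *Rpl3*, *Rpl41*, *Rpl39* and *Rpl17* (0.71, 0.44, 0.41 and 0.29), and 0 lower, against 4.74% and 7.86% of all genes; the median of 0.15 turned to -0.11 under 75th percentile scaling, 0 were called there, with the processed signal and without TA 3 or TA 4, 1 without *gastrocnemius* 1 or 3 or TA 1 or 2, and 8 without *gastrocnemius* 4. Of the 10 skeletal muscle tissue markers 1, *Mb*, was called (median 0.17, which turned to -0.04 under 75th percentile scaling), and of 2 sex-linked genes tested *Eif2s3y*, a Y-linked translation factor, was lower by a small amount (-0.41, SE 0.07, adjusted p = 0.00997).

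The same comparison in the Het mice, whose samples lay in the Cy5 channel of the same arrays, asks whether other mice show the same muscle differences. It shares the slide rows, so it does not separate row from muscle. Of 12613 genes tested, 518 were called higher in Het *gastrocnemius* (4.11%) and 713 lower (5.65%), 1231 in all. Of the genes called in WT, 515 were called in Het in the same direction, which is 34.5% of the WT calls and 41.8% of the Het calls. In the opposite direction 0 were called, and 1457 of 1489 had the same sign. The share with the same sign over all genes is not given here, so that count has no baseline beside it. *Tbx1* differed by -3.20 in Het (SE 0.24, adjusted p = 0.000168), *Six2* by 2.54, *Hoxd8* by 2.05, *Hoxd9* by 2.08, *Musk* by 1.16 and *Raver2* by -1.87, all called. *Myl2* and *Myh7* differed by 6.19 and 5.30, and 10 of 14 slow fibre genes were called higher. *Mybph* (1.69, adjusted p = 0.0647), *Cfd* (2.08, adjusted p = 0.0545) and *Adipoq* (1.72, adjusted p = 0.0817) were not called in Het. Of the 81 oxidative phosphorylation genes 8 were called lower in Het (median -0.15), and *Myh2* was called higher there (2.14, adjusted p = 0.00426). Het calls numbered 407, 594, 475, 390, 411 and 626 without Het *gastrocnemius* 1, 2 or 4 or Het TA 1, 2 or 4.

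**Figure D5:**
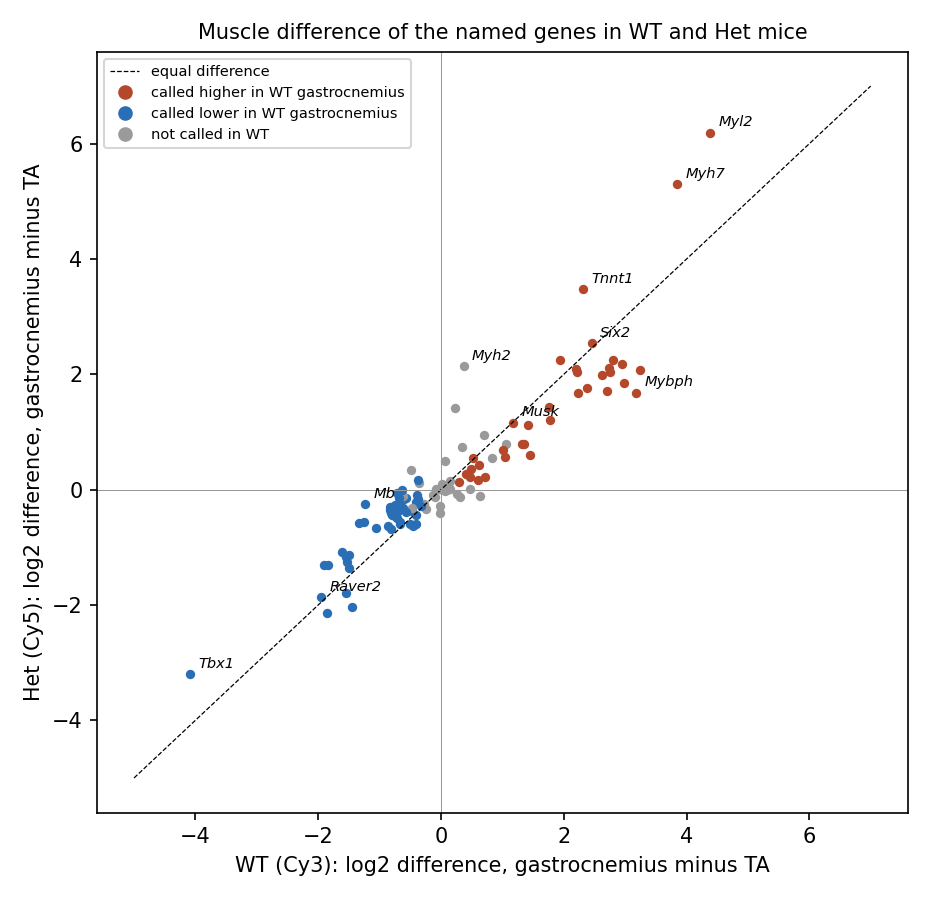
Log2 difference, *gastrocnemius* minus TA, of the named genes in WT (Cy3) on the horizontal axis and in Het (Cy5) on the vertical axis (1 point per gene; red, called higher in WT *gastrocnemius*; blue, called lower; grey, not called in WT), with the dashed line at equal differences. *Tbx1* lies at -4.09 and -3.20, *Six2* at 2.46 and 2.54, and *Myl2* at 4.39 and 6.19.

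A call in WT and none in Het does not show a difference between the genotypes, and the difference itself was tested on the Het over WT ratios of the 8 arrays. No gene passed limma's test: 0 of 11846 were called, and the lowest adjusted p was 0.289 (*Lrtm1*, Het minus WT 0.63). An unadjusted p under 0.05 was found for 1026 genes, where chance alone would give about 1 in 20 of those tested. For *Tbx1*, *Mybph*, *Ppargc1a* and *Gbe1* the Het minus WT change of the muscle difference was 1.09, -1.63, 0.54 and 0.74, each with an adjusted p of 0.604. The ratios and the levels of each channel were scaled separately, so these changes need not equal the gaps between the WT and Het differences given above.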

How the data were processed

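WT *gastrocnemius* and TA of mice were compared on 8 two-colour arrays. The authors deposited scanner files with spot intensity and local background of both channels, not normalized. Their table of log2 ratios holds no WT level and was not used. The paper's methods name Cy3 labelling alone, while the labels, which were followed, give Cy3 and Cy5. The median Cy3 intensity was corrected with normexp (offset 50) and quantile-normalized across the 8 arrays, so that slide row and muscle still coincide; spots marked as poor were dropped and spots of a probe averaged. limma 3.58.1 in R 4.3.3 fitted the 21510 probes kept, with moderated t tests and Benjamini-Hochberg adjustment over all of them at 0.05; a gene is its brightest probe. Between 38.8% and 46% of probes per array were well above background, and 4 samples per muscle set the precision. The fit was tested on simulated data. Alternatives changed scaling, background correction, filter, test, threshold and samples. Figures used matplotlib 3.10.9 and Python 3.11.15.

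Members, lists and alternatives were chosen with earlier results of these data known. Named genes are a fixed list, the 12 largest called differences without overlap in each direction, and for each list its brightest gene and at most 4 called genes per direction. *Tnnc1*, *Atp2a2*, *Scx*, *Dcn*, *Retn*, *Pck1*, *Plin1*, *Esrra*, *Vegfa*, *Hoxa4* and *Hoxc10* were named after values were seen. Some genes that the rule selects are not reported here.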

Additional observations from a re-analysis of the deposited data

Results flagged for a closer look

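In 288 groups of 4 samples (named genes and summed lists in each muscle), Dixon's test asks whether 1 sample stands apart from the other 3. It marked 12 groups, and about 1 in 20, here 14.4, would be marked by chance. The number given is the gap to the nearest sample as a share of the group's range.

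In *gastrocnemius*, sample 1 was highest for *Vwf* (0.84) and for summed glycolysis and glycogen genes (0.88) and lowest for *Nr4a1* (0.889). Sample 3 was lowest for *Lrtm1* (0.854), and sample 4 was highest for *Mdh2* (0.907), *Mdh1* (0.842) and *Lrtm2* (0.83).

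In TA, sample 1 was highest for *Tbx1* (0.837) and lowest for *Rps14* (0.855). Sample 2 was highest for *Hoxb7* (0.865) and lowest for summed adipocyte genes (0.993), and sample 4 was lowest for summed calcium handling genes (0.91).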

How the results depend on the processing

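As given, 1493 genes were called (562 higher in *gastrocnemius*, 931 lower). Scaling to the 75th percentile gave 1539 lower, and no filter on dim probes 369 higher. The scanner software's processed signal, also scaled to the 75th percentile, gave 2262 (1694 lower). At an adjusted p under 0.1 there were 2529 (946 higher, 1583 lower), a change that follows from the looser threshold. Counting probes gave 2323 (846 and 1477), which follows from genes with several probes and probes without a name. SAM at an FDR of 0.05 gave 2670 (1940 lower), 1491 of them also called by limma. Without the filter the calls of *C1qa*, *C1qc*, *Acadl*, *Acadvl*, *Uqcrfs1*, *Mb*, *Esrrb*, *Esrrg*, *Perm1*, *Klf15*, *Zbtb16*, *Cdkn1a*, *Dok7* and *Mybpc2* ended too. For the other changes the cause was not tested.

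With pair number as a replicate block, 845 genes were called (301 higher, 544 lower). Deviations of the 2 muscles with the same pair number correlated at -0.391, 0.106, -0.094 and 0.18. Whether samples paired by number share a mouse is unknown.

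With 1 array left out, calls ranged from 666 to 1549, those higher from 269 to 727 and those lower from 397 to 822. The lower values came without *gastrocnemius* 3 (710: 310 and 400), TA 2 (787: 313 and 474), TA 3 (750: 280 and 470) or TA 4 (666: 269 and 397), and without TA 1 those higher were 347. In Het, 1231 calls became 390 to 1444: 407, 594 and 475 without *gastrocnemius* 1, 2 or 4 and 390, 411 and 626 without TA 1, 2 or 4. The difference between genotypes kept 0 calls in every setting.

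With 4 samples per muscle, calls near the threshold depend on single arrays, while *Tbx1*, *Six2*, *Hoxd8* and *Mybph* do not. Slide row and muscle coincide. Signal over background limits what is seen: 653 genes were tested through 1 muscle only, and 26 called genes were below background in one muscle, so their differences are bounds.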
